A study of Mus musculus with 16 samples.

Results

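The genotype by IL-22 interaction asks which genes of small intestinal organoids respond to IL-22 by a different amount when Atg16l1 is missing. It was computed as the IL-22 effect in Atg16l1ΔIEC organoids minus the IL-22 effect in Atg16l1 fl/fl organoids, over all 16 cultures of the series, with each of the 4 organoid lines given its own mean. In each genotype, organoids were left untreated or given IL-22 at 10 ng/ml over 24 h, which makes 4 groups of 4 cultures, from 2 lines per genotype and 2 cultures per line and treatment. All mice carried floxed Atg16l1 on a C57BL/6 background and were 8–12 weeks old. Atg16l1ΔIEC mice (labelled KO) also carried Cre under the villin promoter, which deletes Atg16l1 in intestinal epithelium only, and Atg16l1 fl/fl mice (labelled WT) were the littermates without it. Lines were told apart by the animal number in the labels and are nested in genotype, so the comparison of genotypes rests on 2 lines against 2. In what follows, values given for the 4 cultures of a group list the first line's 2 cultures and then the second line's, and an IL-22 effect is a log2 fold change of treated against untreated cultures.

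IL-22 is a cytokine of innate lymphoid cells and T cells whose receptor, IL22RA1 paired with IL10RB, is found on epithelial cells and signals mainly through STAT3. In the intestine it is known for inducing antimicrobial lectins, mucins and acute-phase proteins and for acting on crypt stem cells. ATG16L1 is a scaffold of the complex that attaches LC3 to autophagosome membranes, and Paneth cells are known to depend on it for their secretory granules. An interaction, as used here, can arise from a gene that responds more, less or in the other direction without Atg16l1, and it takes no account of where the untreated level stood.

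Gene counts summed to 2135000 in the shallowest and 5574860 in the deepest culture. Epithelial genes were present in every culture (Epcam at 1254 to 1554 CPM, counts scaled to library size). Several markers of other cell types were at or near 0: Cd3e had 0 counts throughout, Ptprc 0 to 1, Col1a1 0 to 3 and Acta2 0 to 1. Others were not: Csf1r had 20 to 58 counts (6.08 to 13.61 CPM), Itgam 0 to 17 and Pecam1 1 to 11. The 26 immune markers summed to 22.2 to 52.5 CPM and the 23 stromal and endothelial markers to 9.25 to 22.95 CPM over all cultures. Atg16l1 itself (ENSMUSG00000026289.15, chr1:87755870-87792428 of GRCm38, plus strand) was at 31.6 to 49.2 CPM in the 4 untreated and 39.2 to 51.8 CPM in the 4 treated fl/fl cultures. In ΔIEC organoids it was at 1.21 to 4.15 CPM untreated and 0.289 to 5.97 CPM with IL-22, below every fl/fl culture. IL-22–treated ΔIEC replicate 2 held the 5.97 CPM, and replicates 1 and 2 of that group, cultures of the same line, differed more than any other such pair (mean chi-square per gene 7.34, against 1.35 to 3.40 in the other pairs). Without replicate 1 the counts of called genes given next were 24 higher and 45 lower, and without replicate 2 they were 23 and 23.

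With the line as a block, 17 of 12559 tested genes had a higher and 36 a lower interaction in ΔIEC organoids at an adjusted p under 0.01 (edgeR quasi-likelihood test, Benjamini-Hochberg), 0.135% and 0.287% of the genes tested. None of the 76 tested genes of a list of interferon genes was among them, although at an unadjusted p under 0.05, 21 of the 76 (27.6%) had a higher and none a lower interaction and the list's median was 0.305. Interferon genes are not described further. Of the 53 genes, 30 had effects of the same sign in both genotypes and a larger one in ΔIEC organoids (6 upward and 24 downward), whether or not each effect passed its own test. Another 10 had effects of the same sign and a smaller one in ΔIEC organoids (3 upward and 7 downward). The remaining 13 had effects of different signs, but in only 2 of them, Snrnp70 and mt-Nd4, did both effects pass the threshold. IL-22 effects passed the threshold in both genotypes for 29 of the 53 genes, in ΔIEC organoids only for 16 and in fl/fl organoids only for 8. Most interactions were moderate, with 38 of 53 below 1 on the log2 scale in absolute size. At an unadjusted p under 0.05 the interaction was higher in 931 genes (7.41%) and lower in 724 genes (5.76%), and these shares are the background for the gene lists below.

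**Figure D1:**
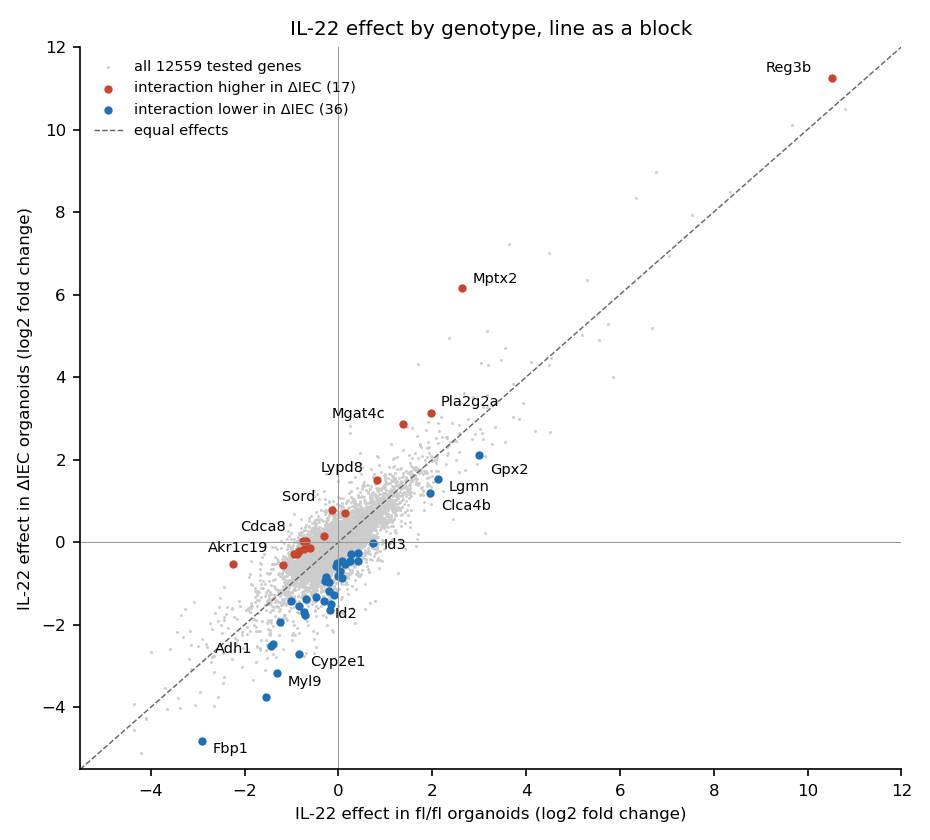
IL-22 effect in fl/fl organoids (horizontal axis) against the IL-22 effect in ΔIEC organoids (vertical axis), both as log2 fold changes from the fit with the line as a block. Grey points are the 12559 tested genes, red points the 17 genes with a higher interaction and blue points the 36 with a lower interaction; the dashed line marks equal effects, and Mptx2 (2.64 and 6.17) and Fbp1 (-2.91 and -4.81) lie far from it.

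The effects of the separate lines were compared for the same genes, since the block fit takes its error mostly from cultures of a line. For all 17 higher genes both ΔIEC lines had a larger IL-22 effect than both fl/fl lines, and for all 36 lower genes both had a smaller one. Over all tested genes the ΔIEC lines lay above both fl/fl lines in 23.0% and below them in 18.0%. Because the calls used the same cultures, this separation describes the calls and does not test them. The lines of a genotype also differed from each other in response: 6 genes (0.0478%) passed the threshold for a line difference in fl/fl and 10 (0.0796%) in ΔIEC organoids. Among the former were Clca3b, with effects of 1.02 and -0.25 in the first and second line, and Duox2, with 3.00 and 4.15. Among the latter were Apoa4 (-0.76 and -2.22), Fabp1 (-1.24 and -2.58) and Sis (-1.19 and -2.18), genes of lipid uptake and sugar digestion in mature enterocytes. None of these 16 genes had a called interaction, but only 53 of the 12559 tested genes did. Line differences also enter the error of the block fit, so this absence says little. Without the block, 1 higher gene (Mptx2) and 1 lower gene (Gpx2) passed, and with an estimated correlation within lines (0.261) 2 and 2 did.

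**Figure D2:**
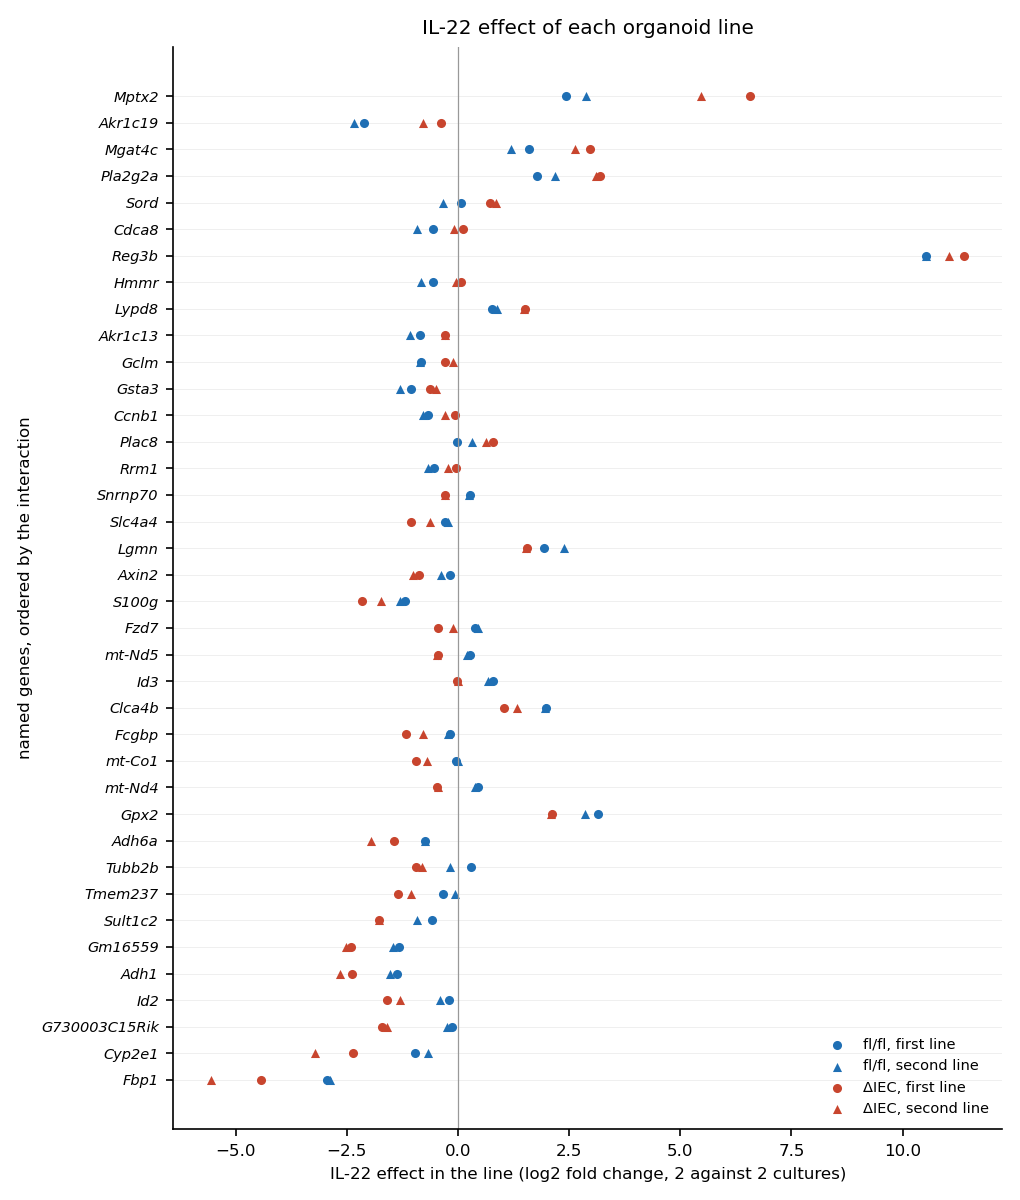
IL-22 effect (log2 fold change of 2 treated against 2 untreated cultures, horizontal axis) of each organoid line for the 38 called genes named in the text, ordered by their interaction (vertical axis). Blue marks are fl/fl and red marks ΔIEC lines, circles the first and triangles the second line of a genotype; in every row the 2 red marks lie to 1 side of the 2 blue marks.

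IL-22 lowered Adh1, Adh6a, Fbp1, Cyp2e1, Sult1c2, S100g and Slc4a4 in both genotypes, and by more in ΔIEC organoids. Adh1, an alcohol and retinol dehydrogenase (ENSMUSG00000074207.10, chr3:138260991-138290698, plus strand), had the smallest p of all interactions. It was at 1103, 1205, 733 and 752 CPM in untreated and 457, 436, 284 and 231 CPM in treated fl/fl cultures, and at 730, 769, 821 and 763 CPM in untreated and 142, 144, 134 and 116 CPM in treated ΔIEC cultures. Every treated ΔIEC culture was below every treated fl/fl culture, whereas the untreated groups overlapped. The IL-22 effect was -1.44 in fl/fl and -2.52 in ΔIEC organoids, an interaction of -1.08 (SE 0.10, adjusted p = 2.63e-09, edgeR). Its neighbour Adh6a had effects of -0.74 and -1.69 (interaction -0.94, SE 0.13, adjusted p = 4.71e-04). Gm16559, an antisense gene whose exons overlap those of Adh1 on the other strand, gave nearly the same effects as Adh1 (-1.39 and -2.46). The strand setting of the counting was not given in the sources used here, so reads of this pair may not be told apart.

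Fbp1, the fructose-1,6-bisphosphatase of gluconeogenesis, fell in both genotypes. It went from 88.0, 78.9, 85.2 and 80.3 CPM to 13.5, 9.12, 14.5 and 6.29 CPM in fl/fl cultures and from 55.9, 54.1, 33.8 and 39.0 CPM to 2.03, 2.84, 1.21 and 0.289 CPM in ΔIEC cultures. Treated ΔIEC cultures together held 20 counts against 635 untreated, a 33.2-fold lower level (95% interval from counting alone, 21.3 to 54.8), and the interaction was -1.90 (SE 0.35, adjusted p = 2.10e-03, edgeR). Cyp2e1, a cytochrome P450 that oxidises ethanol and other small molecules, had effects of -0.83 (fl/fl) and -2.70 (ΔIEC), with 129 counts in untreated and 18 in treated ΔIEC cultures. Sult1c2, a sulfotransferase, had effects of -0.72 and -1.77. S100g, the calcium-binding protein calbindin-D9k of enterocytes, had effects of -1.25 and -1.92, and its untreated level was already lower in ΔIEC organoids (129 ± 14.8 CPM against 393 ± 161 CPM, SD, n = 4). The sodium bicarbonate cotransporter Slc4a4 followed with effects of -0.27 and -0.83. The call was lost in 18 of 31 alternatives for S100g and in 15 for Slc4a4. It was lost in 13 for Sult1c2, in 4 for Adh6a and in 2 for Adh1. Of the alternatives that gave them a value, Cyp2e1 lost its call in 13 and Fbp1 in 9.

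The lists of the metabolic genes among these held members of both directions. Among 63 tested cytochrome P450, conjugation and dehydrogenase genes, 4 passed with a lower interaction and none with a higher one. At an unadjusted p under 0.05, 9 members (14.3%) were lower and 10 (15.9%) higher, against 5.76% and 7.41% of all tested genes. The median interaction was 0.14, against 0.02 over all tested genes. The list fell with IL-22 in both genotypes. Past the threshold were 48 (fl/fl) and 45 (ΔIEC) members, against 1985 and 1500 of all 12559 tested genes. Of 21 tested genes of fructose, polyol and gluconeogenic metabolism, Fbp1 passed downward and Sord upward. Sord, sorbitol dehydrogenase of the polyol pathway, went the other way from the group above: it was at 129, 127, 186 and 163 CPM in untreated and 137, 132, 139 and 135 CPM in treated fl/fl cultures. In ΔIEC cultures it went from 148, 130, 113 and 91.0 CPM to 234, 228, 178 and 189 CPM. Treated ΔIEC cultures were all above treated fl/fl cultures, with an IL-22 effect of 0.78 against -0.14 in fl/fl organoids, where the effect did not pass the threshold (interaction 0.92, SE 0.11, adjusted p = 9.55e-07, edgeR). Of 30 tested brush border hydrolases and structural genes none passed. At an unadjusted p under 0.05, 5 (16.7%) had a higher and 7 (23.3%) a lower interaction. Both shares were above those of all tested genes (7.41% and 5.76%), and the median interaction was -0.003.

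Mitotic genes had higher interactions. IL-22 lowered 68 of 73 tested mitosis and spindle genes in fl/fl and 23 of them in ΔIEC cultures by the same threshold. Of all 12559 tested genes it lowered 1985 and 1500. The median effects of the list were -0.67 and -0.24. The interaction itself passed the threshold in 3 members, namely Cdca8, a subunit of the chromosomal passenger complex, Hmmr, a spindle protein, and Ccnb1, cyclin B1. Cdca8 was at 51.7, 50.3, 79.3 and 80.3 CPM in untreated and 35.6, 33.9, 42.8 and 42.0 CPM in treated fl/fl cultures. In ΔIEC organoids it stayed between 70.7 and 79.5 CPM untreated and 67.4 and 81.8 CPM with IL-22. Treated groups did not overlap, and untreated groups did. The effect was -0.75 in fl/fl and 0.02 in ΔIEC organoids (interaction 0.77, SE 0.13, adjusted p = 4.25e-04, edgeR). Hmmr had effects of -0.70 and 0.02, and Ccnb1 of -0.74 and -0.17, whose call was lost in 21 of 31 alternatives.

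At an unadjusted p under 0.05, 50 of the 73 mitotic genes (68.5%) had a higher and none a lower interaction, against 7.41% and 5.76% of all tested genes, and 71 were positive. Their median interaction was 0.43. Chosen from these after their values were seen, Top2a had effects of -0.51 and -0.061 (interaction 0.45, adjusted p = 0.0195), Cdk1 of -0.69 and -0.23 (0.46, adjusted p = 0.0386) and Plk1 of -0.48 and -0.066 (0.41, adjusted p = 0.0798), so that none of the 3 passed the threshold in edgeR. The median effect was -0.55 and -0.73 in the first and second fl/fl line and -0.16 and -0.35 in the ΔIEC lines. The second fl/fl line weighed most: without it 15 members had a higher interaction at that p, and without any other line 32 to 49 did. The untreated levels of this list also differed, and within fl/fl organoids they differed by line. They summed to 3366 and 3622 CPM in the first and 5386 and 5234 CPM in the second fl/fl line. In ΔIEC cultures they summed to 5838 to 6430 CPM. Replication genes moved alike with smaller differences. Of 62 tested, 1 passed (Rrm1, the large subunit of ribonucleotide reductase, effects -0.61 and -0.13, its call lost in 18 of 31 alternatives) and 22 (35.5%) had a higher and none a lower interaction at an unadjusted p under 0.05, with a median of 0.22 (3 members without the second fl/fl line and 6 without the first ΔIEC line). With a correlation estimated within lines, 7 replication and 36 mitotic genes were higher at that p, and with no block 3 and 21.

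Promoter stretches are shown for a few called genes, chosen by hand among those that held a motif searched for. They are of the mitotic list here, and of the antioxidant and defence genes further below. The sequences, credited to RefSeq (GRCm38.p6, from 250 bases before to 50 after a start), were found for 9289 of the 12559 tested genes and for 43 of the 53 called ones, and both strands were searched. The cell cycle genes homology region (TTTGAA), an element known from promoters of mitotic genes, was present in 44 of 62 mitotic genes with a sequence (71.0%), in 8 of 48 replication genes (16.7%) and in 14.4% of tested genes. A CCAAT box (CCAAT) was present in 46 of the 62 mitotic genes (74.2%), in 27 of 48 replication genes (56.2%), in 29 of 38 genes of the ER chaperone list (76.3%) and in 42.9% of tested genes. Of all 32851 promoters, 17.9% held the first and 37.4% the second motif. Among called genes with a sequence, the first was in 6 of 16 higher and 8 of 27 lower ones. The second was in 11 higher and 15 lower ones. In the stretches of the Cdca8 and Hmmr promoters below, capitals mark both motifs, in either orientation (the CCAAT box then reads ATTGG). In Cdca8 the homology region overlaps the last CCAAT box.
Cdca8 (chr4:124936893-124937017, minus strand): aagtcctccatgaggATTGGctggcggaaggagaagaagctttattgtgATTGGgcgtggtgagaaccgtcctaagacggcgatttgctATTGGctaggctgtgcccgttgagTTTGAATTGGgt
Hmmr (chr11:40733413-40733624, minus strand): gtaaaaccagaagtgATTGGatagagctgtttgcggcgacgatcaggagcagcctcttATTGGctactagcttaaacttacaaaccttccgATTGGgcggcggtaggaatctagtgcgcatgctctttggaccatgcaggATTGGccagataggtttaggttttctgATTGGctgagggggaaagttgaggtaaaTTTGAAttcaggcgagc

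Genes of antioxidant defence split, with Gpx2 on one side and Gclm, Gsta3 and aldo-keto reductases on the other. Gpx2, the gastrointestinal glutathione peroxidase (ENSMUSG00000042808.7, chr12:76792333-76795554, minus strand), was at 230, 196, 272 and 231 CPM in untreated and 1851, 1898, 1897 and 1739 CPM in treated fl/fl cultures. In ΔIEC cultures it was at 491, 470, 448 and 417 CPM untreated and 2131, 2013, 1831 and 1870 CPM with IL-22. Untreated ΔIEC cultures were all above untreated fl/fl cultures and the treated groups overlapped. IL-22 raised it 8.01-fold in fl/fl and 4.29-fold in ΔIEC organoids (interaction -0.90, SE 0.09, adjusted p = 5.99e-08, edgeR). Its call held in all 31 alternatives that gave it a value, which was true of no other named gene. The 31 include the same fit at an adjusted p under 0.05, where no call can be lost.

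Gclm, the modifier subunit of the enzyme that starts glutathione synthesis, was at 145 to 170 CPM in untreated and 82.4 to 90.7 CPM in treated fl/fl cultures, and at 128 to 179 CPM untreated and 123 to 156 CPM treated in ΔIEC cultures. It fell by 0.85 on the log2 scale in fl/fl organoids, and its effect in ΔIEC organoids was -0.21 (adjusted p = 0.0268; interaction 0.64, SE 0.11, adjusted p = 7.50e-04, edgeR). The glutathione transferase Gsta3 had effects of -1.19 and -0.56. Among the aldo-keto reductases of the Akr1c cluster on chromosome 13, Akr1c19 had effects of -2.25 and -0.53 and Akr1c13 of -0.96 and -0.28. Akr1c and Gsta genes have close relatives, and reads could be split among them. Untreated levels of Gsta3 were higher in ΔIEC organoids (243 ± 21.1 CPM against 156 ± 10.9 CPM, SD, n = 4), as were those of Akr1c13 (135 ± 20.4 CPM against 90.4 ± 9.76 CPM). Of 56 tested genes of the glutathione system and NRF2 targets, 2 passed higher and 1 lower, and at an unadjusted p under 0.05, 13 (23.2%) were higher and only Gpx2 was lower. Without the first fl/fl line 7 were higher and 2 lower, without either ΔIEC line 3 were lower, and with no block 8 were higher and 1 lower. Sqstm1, the autophagy receptor p62, rose by 1.11 in fl/fl and 0.67 in ΔIEC organoids on the log2 scale, with an interaction of -0.44 that missed the threshold (adjusted p = 0.0241; chosen after its value was seen).

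The core of the antioxidant response element (TGACNNNGC), the site known for NRF2, was present in 15 of 49 genes of the glutathione list with a promoter (30.6%). It was present in 6 of 16 higher and 8 of 27 lower called genes, in 17.0% of tested genes and in 12.4% of all promoters. The ER chaperone list held it in 11 of 38 genes (28.9%), the mitotic list in 11 of 62 (17.7%) and the replication list in 9 of 48 (18.8%). Gclm, Gsta3 and Akr1c19 held it and are shown with the match in capitals. The stretch of Akr1c19 also holds a STAT-type palindrome (TTCNNNGAA) in capitals, which was found in 8.13% of tested genes and 8.30% of all promoters. Reg3b is shown for the same palindrome.
Gclm (chr3:122245408-122245446, plus strand): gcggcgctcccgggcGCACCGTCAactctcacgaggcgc
Gsta3 (chr1:21240449-21240487, plus strand): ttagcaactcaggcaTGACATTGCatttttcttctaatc
Akr1c19 (chr13:4233701-4233764, plus strand): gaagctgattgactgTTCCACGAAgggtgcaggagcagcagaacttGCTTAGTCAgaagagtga
Reg3b (chr6:78370741-78370779, plus strand): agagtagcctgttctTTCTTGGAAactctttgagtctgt

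The defence genes Mptx2, Pla2g2a, Reg3b and Lypd8 rose in both genotypes and by more in ΔIEC organoids. Mptx2, a mucosal pentraxin of Paneth cells (ENSMUSG00000079180.4, chr1:173274382-173277777, minus strand), had the largest interaction of the named genes. It was at 7.60, 10.5, 10.4 and 5.89 CPM in untreated and 56.6, 44.4, 51.1 and 62.6 CPM in treated fl/fl cultures. In ΔIEC cultures it was at 0.943, 0.246, 0.804 and 0.831 CPM untreated and 69.7, 52.8, 38.4 and 36.8 CPM with IL-22. The genotypes were apart before treatment and overlapped after it. Untreated ΔIEC cultures held 9 counts in all and treated ones 612, a 64.9-fold ratio by library totals (95% interval from counting alone, 34.0 to 142.7). The fitted rise was 72.0-fold in ΔIEC and 6.23-fold in fl/fl organoids, an interaction of 3.53 (SE 0.42, adjusted p = 9.55e-07, edgeR). Pla2g2a, a secreted phospholipase of Paneth cells, had effects of 1.96 and 3.14 (interaction 1.18, SE 0.19, adjusted p = 1.01e-03). C57BL/6 mice are known to carry a frameshift in this gene, and the annotation gives it as a polymorphic pseudogene, so the value describes a transcript. Both genes belong to a list of Paneth cell genes of which 24 were tested, 2 passed higher and none lower, and 5 had a higher and 3 a lower interaction at an unadjusted p under 0.05. The whole list summed to 6658 to 10550 CPM in untreated and 8972 to 11570 CPM in treated fl/fl cultures, and to 3995 to 5302 and 4644 to 5707 CPM in ΔIEC cultures. In bulk RNA, fewer Paneth cells and less RNA per Paneth cell cannot be told apart.

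Reg3b, a C-type lectin that binds bacteria, went from 8.44 to 15.5 CPM in all untreated cultures to 18330, 18180, 20000 and 20130 CPM in treated fl/fl and 31960, 29490, 21160 and 24690 CPM in treated ΔIEC cultures. Treated ΔIEC cultures were all above treated fl/fl cultures, the first ΔIEC line by more than the second. The log2 effects were 10.53 and 11.25 (interaction 0.73, SE 0.15, adjusted p = 6.86e-03, edgeR), and this call was lost in 19 of 31 alternatives. Lypd8, a protein that keeps flagellated bacteria from the mucosa, was at 470 to 645 CPM untreated and 870 to 1084 CPM treated in fl/fl cultures, and at 448 to 530 CPM and 1276 to 1628 CPM in ΔIEC cultures. Its effects were 0.82 and 1.499 (interaction 0.68, SE 0.09, adjusted p = 1.34e-05). Of 35 tested Reg and mucosal defence genes, Lypd8 and Reg3b passed higher and S100g lower. At an unadjusted p under 0.05, 7 of the 35 had a higher and 4 a lower interaction (S100g, Tff3, Pigr and Itln1). The interaction was positive in 19 members and its median was 0.018, so the list as a whole did not shift upward. Complement C3 and serum amyloid Saa3, chosen after their values were seen, had effects of 2.36 and 4.95 and of 1.71 and 4.32, with interactions that missed the threshold (2.59, adjusted p = 0.0244, and 2.61, adjusted p = 0.0297).

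Called goblet cell and mucus genes had lower interactions. Fcgbp, which binds to the mucin network, was at 1373, 1349, 902 and 891 CPM in untreated and 1156, 1251, 809 and 735 CPM in treated fl/fl cultures, and at 757, 827, 983 and 976 CPM in untreated and 314, 388, 638 and 494 CPM in treated ΔIEC cultures. Only in the treated groups were the genotypes apart. The effect was -0.20 (adjusted p = 0.0425) in fl/fl and -0.98 in ΔIEC organoids, with an interaction of -0.78 (SE 0.11, adjusted p = 1.06e-04, edgeR). Clca4b, a secreted protein of the calcium-activated chloride channel regulator family, rose by less in ΔIEC organoids (effects 1.96 and 1.18). It is one of several similar Clca genes in a cluster on chromosome 3. The trefoil factor Tff3 had effects of -0.43 and -0.86 and an interaction just outside the threshold (-0.43, adjusted p = 0.0101), while Agr2, a disulfide isomerase needed for mucin folding, had 0.41 and 0.78. Of 29 tested members 2 passed lower and none higher, and at an unadjusted p under 0.05, 7 (24.1%) were lower and 1 (Agr2) was higher, with a median interaction of -0.22. With no block 3 were lower and 1 higher. Muc2, the main secreted mucin, rose by 0.96 and 1.13 (interaction 0.17, adjusted p = 0.638).

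**Figure D3:**
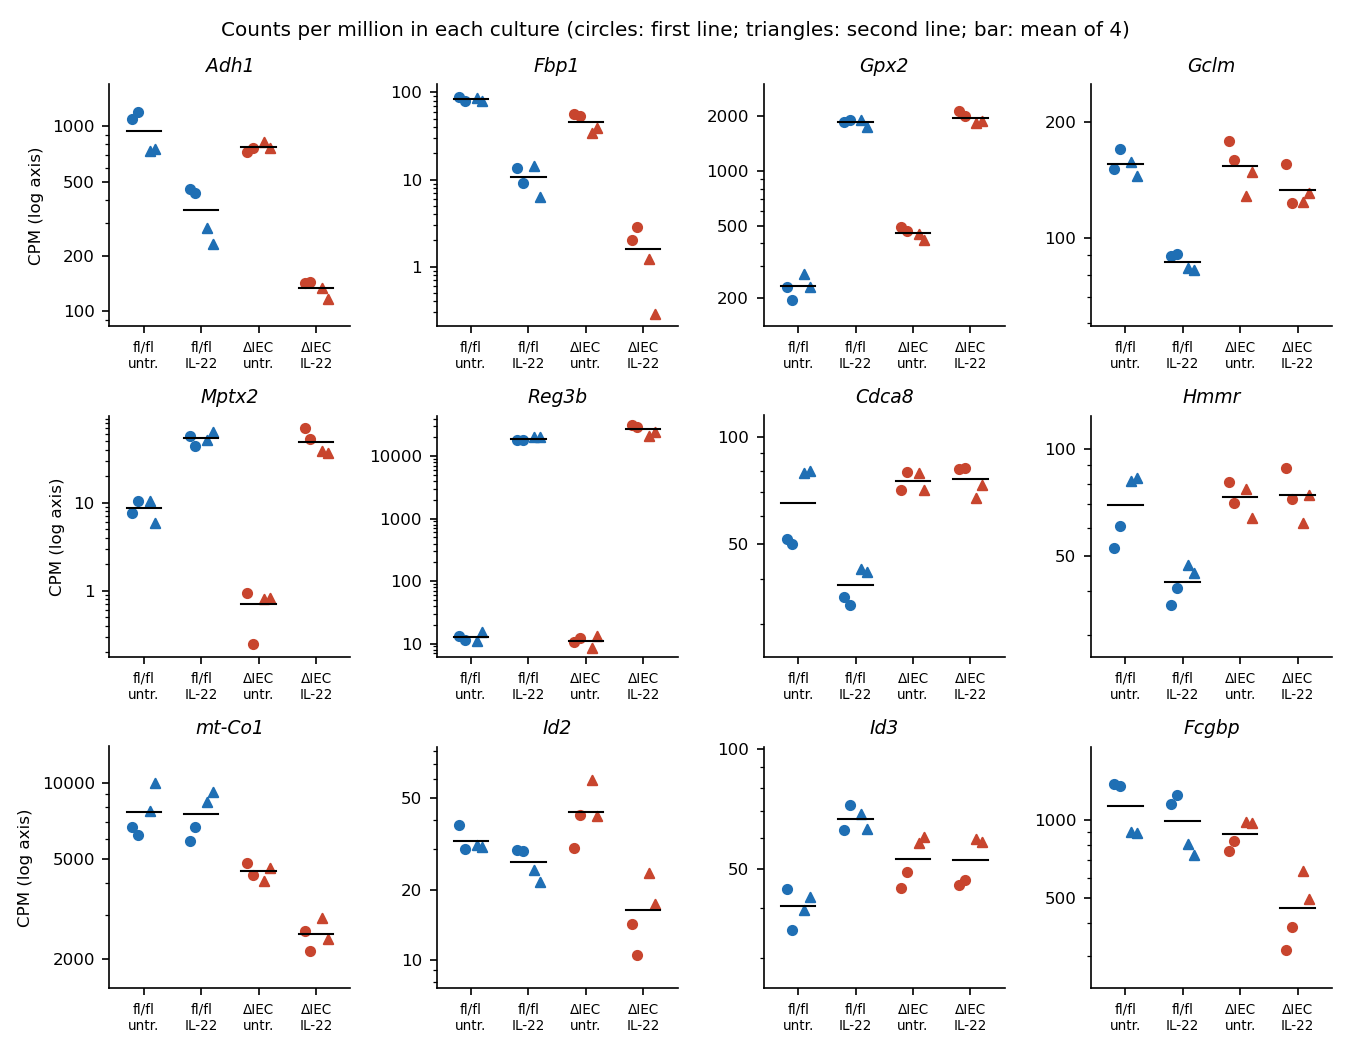
CPM (log axis) of 12 genes in each of the 16 cultures, by genotype and treatment. Circles are the first and triangles the second line of a genotype and bars the mean of 4 cultures; Mptx2 lies below 1 CPM in the 4 untreated ΔIEC cultures and overlaps between genotypes with IL-22, and treated ΔIEC cultures lie below treated fl/fl cultures for Adh1, Fbp1, mt-Co1 and Fcgbp.

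Of 10 tested genes of the mitochondrial genome, IL-22 lowered 7 past the threshold in ΔIEC organoids and none in fl/fl organoids, where 1 rose. Of all 12559 tested genes it lowered 1500 in ΔIEC and 1985 in fl/fl organoids. The test of the interaction was passed by 3 of the 10. The gene mt-Co1, a subunit of cytochrome c oxidase, was at 6679, 6230, 7690 and 9940 CPM in untreated and 5893, 6666, 8423 and 9213 CPM in treated fl/fl cultures. In ΔIEC cultures it was at 4812, 4312, 4070 and 4596 CPM untreated and 2589, 2144, 2899 and 2404 CPM with IL-22. Both ΔIEC groups were below every fl/fl culture, and treated below untreated ones. Its effects were -0.02 and -0.83 (interaction -0.81, SE 0.12, adjusted p = 1.02e-03, edgeR). The complex I subunits mt-Nd5 and mt-Nd4 had effects of 0.24 and -0.46 and of 0.43 and -0.46, and mt-Nd4 is one of the pair of genes with both effects past the threshold in different directions (interaction -0.89, SE 0.15, adjusted p = 6.01e-03), a call lost in 15 of 31 alternatives. Exons of mt-Nd5 overlap mt-Nd6 on the other strand. Of the 10 members, 8 (80.0%) had a lower and none a higher interaction at an unadjusted p under 0.05, with a median of -0.74, and 8 to 9 did so without any 1 culture or line and 6 with no block. The exceptions were the ribosomal RNAs mt-Rnr1 and mt-Rnr2 (0.05 and -0.28).

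All mitochondrially encoded genes together took 1.22% to 2.09% of the counts in untreated and 1.26% to 2.10% in treated fl/fl cultures. In ΔIEC cultures they took 1.12% to 1.37% untreated and 0.671% to 0.883% with IL-22, so the treated ΔIEC cultures lay below all others. This share can move with RNA quality and library preparation, and their part in the result was not tested. Of 74 tested nuclear genes of the respiratory chain none passed, 8 had a higher and none a lower interaction at an unadjusted p under 0.05, and the median was 0.10.

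A few targets and receptors of developmental signals were among the lower genes. Id2 and Id3, inhibitors of helix-loop-helix factors that BMP signals are known to induce, differed in how the interaction arose. Id3 was at 35.2 to 44.7 CPM in untreated and 62.6 to 72.5 CPM in treated fl/fl cultures, but at 44.8 to 60.2 CPM and 45.8 to 59.5 CPM in ΔIEC cultures, so that its effect passed the threshold in fl/fl organoids alone (effects 0.73 and -0.01; interaction -0.74, SE 0.13, adjusted p = 1.02e-03, edgeR). Id2 was at 30.1 to 38.3 CPM and 21.6 to 29.7 CPM in fl/fl cultures, and went from 30.4 to 59.5 CPM to 10.5 to 23.6 CPM in ΔIEC cultures (effects -0.30 and -1.43; interaction -1.12, SE 0.20, adjusted p = 1.27e-03). These genes were the 2 called members of 44 tested Notch, EGF and BMP genes, of which 9 (20.5%) had a lower and none a higher interaction at an unadjusted p under 0.05. That count was 4 without the first and 16 without the second ΔIEC line, and 6 with no block. Axin2, a feedback inhibitor and target of Wnt signals, fell by more in ΔIEC organoids (effects -0.29 and -0.94), and the Wnt receptor Fzd7 had effects of 0.41 and -0.27, of which the second did not pass. With Cyp2e1 they were the called members of 39 tested stem cell and Wnt genes, where 8 (20.5%) were lower and 2 higher at an unadjusted p under 0.05 (13 and 3 without the second ΔIEC line) and the median was -0.03. Lgr5, the stem cell receptor for R-spondin, had effects of -0.28 and -0.61 (interaction -0.33, adjusted p = 0.518).

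Further named genes fell outside these groups. Snrnp70, a protein of the U1 spliceosomal particle, is the other gene with both effects past the threshold in different directions: 0.27 in fl/fl and -0.28 in ΔIEC organoids (interaction -0.55, SE 0.10, adjusted p = 1.78e-03, edgeR), with untreated cultures at 93.2 to 228.4 CPM in fl/fl, set apart by line, and 141.9 to 152.0 CPM in ΔIEC. The tubulin Tubb2b was higher in ΔIEC organoids to begin with (65.3 ± 0.980 CPM against 16.9 ± 3.08 CPM, SD, n = 4) and fell there by 0.88 on the log2 scale, while its effect in fl/fl organoids was 0.07. Lgmn, the lysosomal endopeptidase legumain, rose by 2.12 in fl/fl and 1.54 in ΔIEC organoids and was the only called gene of 57 tested lysosome genes. Plac8 had effects of 0.15 and 0.71, and Mgat4c, a relative of enzymes that branch N-glycans, of 1.37 and 2.85. The call was lost in 21 alternatives for Lgmn and in 20 for Mgat4c. Tmem237, a protein of the ciliary transition zone, had effects of -0.20 and -1.18, and G730003C15Rik, an antisense gene whose exons overlap Tmem237 and Mpp4 on the other strand, had -0.18 and -1.65. In all, 13 of the 53 called genes share exon positions with another annotated gene, 11 of them with a gene on the other strand. The remaining 15 called genes are not named by the rule used here.

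Components of IL-22 signalling gave no called interaction. Stat3 rose by 1.36 in fl/fl and 1.46 in ΔIEC organoids (interaction 0.10, SE 0.10, adjusted p = 0.755), Socs3, its feedback inhibitor, by 4.50 and 4.30 (interaction -0.20, SE 0.23, adjusted p = 0.793) and the receptor Il22ra1 by 0.48 and 0.56 (interaction 0.08, SE 0.17, adjusted p = 0.913). Il10rb had effects of 0.02 and 0.41 (interaction 0.39, SE 0.19, adjusted p = 0.355, edgeR). Of 27 tested receptor, JAK-STAT3 and SOCS genes, 1 had a higher and none a lower interaction at an unadjusted p under 0.05, and the list's median was -0.05. A p that misses the threshold does not show that the responses were equal.

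Other lists, with no called gene unless one is named, are given by their members at an unadjusted p under 0.05. ER chaperones and unfolded protein response genes had 19 of 49 members (38.8%) higher and none lower, and their median effect was 0.19 (fl/fl) and 0.34 (ΔIEC). The one with the smallest p was Spcs2, a subunit of signal peptidase (effects -0.11 and 0.30; interaction 0.41, adjusted p = 0.025), whereas Hspa5, the chaperone BiP, had 0.62 and 0.60 and Xbp1 1.31 and 1.22. Without 1 of the lines, 7 to 11 members were higher, and with no block 9. Constitutive proteasome subunits had 7 of 35 higher and none lower. Sterol and fatty acid synthesis had 10 of 43 (23.3%) lower and 1 higher, among them Scd1 (effects -1.36 and -1.80) and Insig1 (-0.67 and -0.93). Of these, 3 were lower without the first fl/fl line, 5 without treated fl/fl replicate 2 and 5 with no block. Keratin, tubulin and cytoskeleton genes, a list on which Tubb2b was called, had 8 of 34 (23.5%) lower and 2 higher, with Krt18 at 0.66 and 0.39. Autophagy genes (5 of 51, or 9.80%, in each direction) and ATF4 and integrated stress genes (3 higher and 2 lower of 46) were near the background. The genes named here were chosen after their values were seen, and these counts at an unadjusted p are not calls, and members of a list are not independent of each other.

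**Figure D4:**
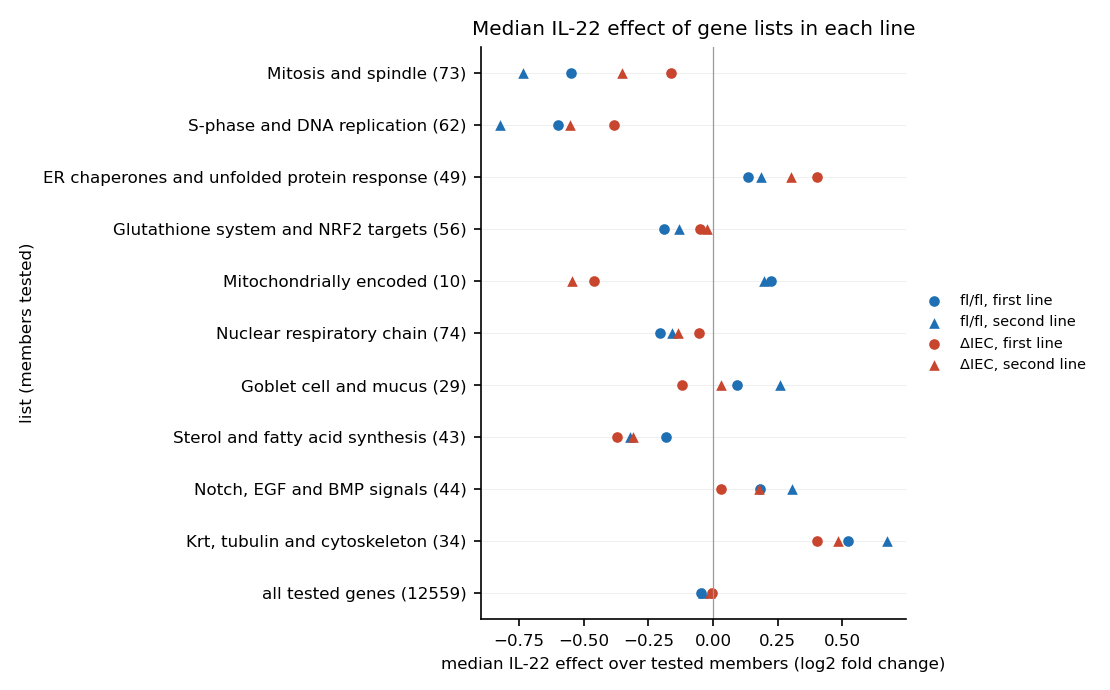
Median IL-22 effect (log2 fold change, horizontal axis) over the tested members of 10 gene lists and over all tested genes, for each organoid line; the number of members tested stands in brackets. Blue marks are fl/fl and red marks ΔIEC lines, circles the first and triangles the second line; for mitochondrially encoded genes the fl/fl lines lie at 0.22 and 0.20 and the ΔIEC lines at -0.46 and -0.54.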

How the data were processed

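Per the labels and the methods of the study, RNA of 16 organoid cultures was sequenced as paired-end reads, trimmed with cutadapt, aligned to GRCm38 (mm10) with TopHat2 and counted per gene with HTSeq. The authors deposited these counts as whole numbers for 49585 genes without normalization. The kit is given as TruSeq RNA v2 in the labels but as a stranded total RNA preparation in the methods. The strand setting and the annotation release are not given in the sources used here. Summary lines of the table (reads in no gene, 38.0% to 40.1%, ambiguous reads, 0.740% to 1.13%, and reads aligned to several places, 21.5% to 24.2%) were left out of library sizes and tests. Symbols and positions came from GENCODE M21 for 99.5% of the identifiers.

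Genes were kept by edgeR's filterByExpr on the 4 groups and scaled by TMM (edgeR 4.0.16, R 4.3.3). A quasi-likelihood model with a mean for each of 4 lines and an IL-22 effect for each genotype (10 residual degrees of freedom, common coefficient of variation 0.071) gave two-sided tests, adjusted by Benjamini-Hochberg over 12559 genes, at 0.01. The standard error is the log2 value divided by the square root of F. The line is the block because cultures of a line share an animal number in the labels. Deviations from group means of treated and untreated cultures correlated at 0.26 to 0.44 within fl/fl lines and 0.056 to 0.32 within ΔIEC lines. These correlations were taken across genes, which are not independent. The p-values therefore rest mostly on the spread between cultures of a line. The 10 residual degrees of freedom also hold differences in IL-22 effect between lines of a genotype. A fit with a mean for each line and treatment leaves 8. An exact permutation test over 2 lines against 2 cannot go below 0.333. CPM are counts scaled by TMM library size. Marker sums use library totals. Counting intervals are exact binomial and cover counting error only.

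The scripts were tested on simulated data. Named genes were the 15 of each direction with the smallest p, up to 6 called genes on each list, genes with both effects past the threshold in different directions, and Atg16l1, Il22ra1, Il10rb, Stat3 and Socs3. The 41 gene lists and this rule were chosen with earlier results of these data known. Alternatives used DESeq2 1.42.0, limma-voom (limma 3.58.1), other scaling, filters, blocks and thresholds, and left out each culture and line. The looser threshold, an adjusted p under 0.05 in the same fit, cannot lose a call.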

Additional observations from a re-analysis of the deposited data

Results flagged for a closer look

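The IL-22 effect differed between genotypes, by the interaction test, in 17 genes with a higher and 36 with a lower value in ΔIEC organoids, which are described above. It differed between the 2 lines of a genotype in 6 genes of fl/fl and 10 genes of ΔIEC organoids. Among the ΔIEC genes, Anpep, an aminopeptidase of the brush border, had effects of 1.23 in the first and -0.999 in the second line, and Cyp2c29, a cytochrome P450, of -1.83 and -4.33. Among the fl/fl genes, Capg had effects of 1.11 and 2.75.

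One culture lay far from the other 3 of its group in 5 of 176 comparisons of CPM or mitochondrial share, as the ratio of the gap to the whole range against Dixon's 95% limit. Chance flags about 1 in 20 groups, so 5 of 176 is no excess. Atg16l1 was high in IL-22–treated ΔIEC replicate 2 (ratio 0.908), at 5.97 CPM against 0.289 to 0.810 CPM in the others. Fzd7 was low in untreated ΔIEC replicate 1 (0.887), Id2 high in untreated fl/fl replicate 1 (0.857), Plac8 high in untreated ΔIEC replicate 3 (0.84) and mt-Nd5 high in untreated ΔIEC replicate 1 (0.836). Without these cultures in turn the interactions of Fzd7, Id2, Plac8 and mt-Nd5 kept their sign and stayed past the threshold.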

How the results depend on the processing

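The number of called interactions depended on how lines were treated. Against 17 higher and 36 lower genes with the line as a block, 1 and 1 passed with no replicate block, 2 and 2 by limma-voom with a correlation within lines, 6 and 18 after summing each line's cultures per treatment, 33 and 66 with an own IL-22 effect for each line, 57 and 103 with no filter on low counts and 77 and 98 at an adjusted p under 0.05. The other tools, scalings and filters stayed within 1.5 times, up to 16 and 53 by DESeq2's likelihood ratio test. With 1 culture or line left out, 7 to 40 higher and 14 to 75 lower genes passed. They were 40 and 75 without the second and 10 and 25 without the first ΔIEC line, 7 and 16 without the first and 11 and 26 without the second fl/fl line, 35 and 66 without IL-22–treated ΔIEC replicate 3, 8 and 14 without replicate 4 and 23 and 23 without replicate 2. Of treated fl/fl cultures, leaving out replicate 2 gave 13 and 23, replicate 3 gave 9 and 19 and replicate 4 gave 11 and 38. Genes differing between fl/fl lines numbered 11 at an adjusted p under 0.05, 35 with no filter and 1 to 24 with a culture left out, and between ΔIEC lines 28, 37 and 7 to 62 (24 and 62 without IL-22–treated ΔIEC replicate 2). The cause was not tested. When every culture had to hold 10 counts, no tuft, stromal or endothelial marker was left to give a list median.

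Signs turned only for 4 named genes that had no call. With a culture or line left out, the log2 interaction of Stat3 ranged from -0.081 (without the first fl/fl line) to 0.238, the log2 interaction of Socs3 from -0.720 to 0.197 (without the second), the log2 interaction of Atg16l1 from -3.17 to 0.318 (without the second ΔIEC line, and 0.117 without untreated ΔIEC replicate 4) and the log2 interaction of Il22ra1 from -0.0363 (without the second ΔIEC line, and -0.00234 without untreated ΔIEC replicate 4) to 0.157. Without the block, 36 of the 38 called named genes lost their call. The culture number within a line did not pair cultures (correlations -0.057 to 0.093), and as a block it gave 14 and 37 genes.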
